A study of Homo sapiens with 6 samples.

Results

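The NRF2 antioxidant system was examined through 9 genes chosen by name: the transcription factor gene NFE2L2, its repressor KEAP1 and the target genes HMOX1, NQO1, GCLC, GCLM, TXNRD1, SRXN1 and FTH1. All 9 were among the 17088 genes of the deposited table, and all 9 passed the filter of at least 1 FPKM in at least 3 libraries that left 10909 genes for testing. RNA sequencing had been done on the human breast cancer line MDA-MB-231, which is triple-negative, with 3 libraries from cells carrying a vector for overexpression of the noncoding RNA RPPH1 (VecRPPH1, treatment label "overexpress RPPH1") and 3 from cells carrying the control vector (VecNC, treatment label "NC"). Libraries are numbered by group as RPPH1 replicates 1 to 3 and control replicates 1 to 3. The labels did not say whether replicates were separate cultures, or whether the vector cells were a pool or a clone, so a p-value here reflects the spread among these 6 libraries alone, and that spread may be technical.

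NRF2, the protein of NFE2L2, is a transcription factor that in unstressed cells is bound by KEAP1, an adaptor that brings it to a CUL3 ubiquitin ligase for degradation by the proteasome. Oxidants and electrophiles modify cysteines of KEAP1, NRF2 escapes degradation, pairs with a small MAF protein and binds antioxidant response elements at genes for glutathione synthesis, the thioredoxin system, quinone reduction, heme breakdown and iron storage. Because NRF2 is controlled mainly through its protein, the NFE2L2 mRNA alone does not report its activity, and the transcripts of its targets are the usual readout.

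The antioxidant response element has the core TGACNNNGC, and the extended form TGACNNNGCA was searched on both strands of RefSeq promoter windows (build GRCh38.p14, 250 bases before to 50 after each start). These windows were available for 7 of the 9 genes, with 10 starts among them. Bases farther from a start were not searched, so a gene without a match here may hold the element elsewhere. The extended form occurred in 3 of these 10 windows, in 1 window each of GCLM, TXNRD1 and KEAP1, and in 3.18% of all 35116 windows. The core occurred in 4 of the 10 and in 13.3% of all windows. TGACTCA, a site of AP-1 factors, occurred in 0 of the 10 and in 4.95% of all. All 3 matches lay before the RefSeq start of their own window and on the strand opposite to the gene. The KEAP1 and TXNRD1 matches fell inside the gene spans given below, so they were not before the outermost start of the gene. The bases printed for GCLM cross the outer end of its span. The matches are printed here as letters that fit the extended form, with the 10 matching bases in capitals. The GCLM and KEAP1 matches had the same 10 bases, so the gene of the NRF2 repressor carried the same letters as the gene of a glutathione synthesis enzyme.
GCLM, chr1:93909446-93909475, plus strand: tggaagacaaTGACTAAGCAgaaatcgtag
KEAP1, chr19:10502784-10502813, plus strand: caggtcaccaTGACTAAGCAgagccgggcg
TXNRD1, chr12:104286919-104286948, minus strand: agagtcagaaTGACAAAGCAgaaatccact
A match of letters is not a measured binding site, and the 6 libraries hold no binding data.

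Overexpression of RPPH1 was not accompanied by a detected change in any of the 9 genes. With limma on log2(FPKM + 1), 0 of 9 rose and 0 of 9 fell at a Benjamini-Hochberg adjusted p under 0.05, where 1 of the 10909 genes tested passed (0.00917%). limma-voom on fragments recovered from the FPKM values called 0 of 9 as well, where it called 17 of all genes (0.156%). At an unadjusted p under 0.05, each tool had 1 of 9, FTH1 in both, against 7.97% of all genes by limma and 8.67% by limma-voom. The libraries of the RPPH1 and control groups overlapped in all 9 genes, while 13.9% of all tested genes had groups that did not overlap. Means were higher in RPPH1 libraries for 3 genes and lower for 6, with a median log2 fold change of -0.023, beside 52.3% of all genes with higher means and a median of 0.0046. The median absolute log2 fold change was 0.028 for the 9 genes and 0.048 for all genes. In bulk RNA, fewer cells expressing a gene and less of its RNA per cell cannot be told apart.

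The 95% intervals of the limma fit bounded how large a difference in log2(FPKM + 1) these libraries could hide. The lowest bound among the 9 genes was 0.859-fold, for KEAP1, and the highest was 1.14-fold, for NQO1, both as ratios of FPKM + 1 in RPPH1 over control libraries. Library totals were 17603126 to 18817269 fragments, with 219 to 19694 fragments per gene and library, HMOX1 having the fewest and FTH1 the most. In log2(FPKM + 1), NQO1, with 2314 to 2973 fragments per library, had the same SE of 0.074 as HMOX1. By limma-voom on recovered fragments the SE was larger for HMOX1, at 0.110, than for NQO1, at 0.064. The bounds given here were taken from limma alone. Control replicate 1 stood apart, with a first principal component score of -10.9 where the other 5 libraries had -0.107 to 4.40, and the fold changes given for single genes that moved by over 1.5 times without it are given both ways. Markers were read for the line's mesenchymal and estrogen receptor-negative identity. VIM was at 2585 to 2624 FPKM in RPPH1 and 2674 to 2743 FPKM in control libraries, and the summed level of 5 mesenchymal markers was 3351 to 3400.2 FPKM in RPPH1 and 3451 to 3534 FPKM in control libraries, without overlap. The markers did not move as one. VIM and MSN were lower in all RPPH1 libraries than in all controls, CAV1 was higher, at 81.9 to 86.4 FPKM in RPPH1 and 71.4 to 81.7 FPKM in control libraries, and CD44 and AXL overlapped. ESR1 and CDH1 reached no more than 0.0173 and 0.144 FPKM in any library, while KRT8 was at 139.9 to 146 FPKM in RPPH1 and 134 to 146 FPKM in control libraries. The epithelial marker EPCAM was also expressed, at 6.17 to 7.29 FPKM in RPPH1 and 6.57 to 7.21 FPKM in control libraries. ERBB3 reached no more than 1.02 FPKM, and PGR was not among the listed genes. The 7 markers of other cells summed to 8.07 to 9.26 FPKM in RPPH1 and 6.87 to 8.18 FPKM in control libraries, most of it COL1A1 and CD14. CDH5 was listed at 0 in all RPPH1 libraries, and PTPRC and CD3E stayed at or under 0.158 FPKM. CD14 alone did not overlap between groups, at 3.08 to 3.46 FPKM in RPPH1 and 2.12 to 2.57 FPKM in control libraries. The part of these differences in the results was not tested. RPPH1 itself was not analysed here, so its overexpression has no check from these values.

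**Figure D1:**
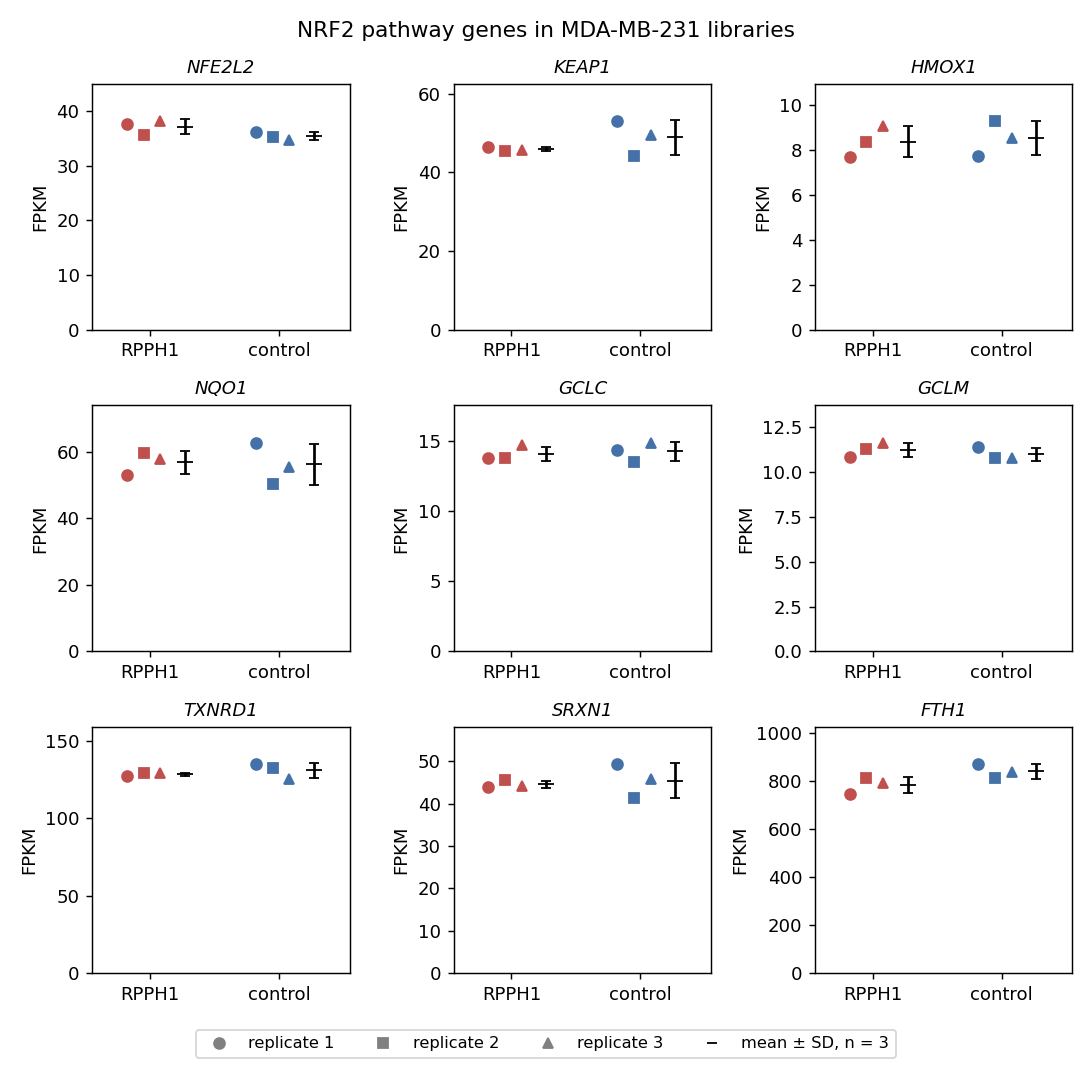
FPKM of each gene (vertical axes, from 0) in the 3 RPPH1 libraries (red, left) and the 3 control libraries (blue, right), with marker shape for the replicate and black bars for mean ± SD (n = 3). The groups overlap in all 9 panels, and for KEAP1 and SRXN1 the control libraries spread wider than the RPPH1 libraries.

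Levels differed far more between the genes than between the groups. On the FPKM scale, which is per length, the order of the means over 6 libraries was FTH1 (812), TXNRD1 (129.6), NQO1 (56.5), KEAP1 (47.4), SRXN1 (45.0), NFE2L2 (36.2), GCLC (14.1), GCLM (11.1) and HMOX1 (8.46 FPKM). FTH1 was at percentile 99.7 of all tested genes and HMOX1 at percentile 40.4. Neighbours in this order had separate ranges except NQO1 with KEAP1 and KEAP1 with SRXN1. Within a library NQO1 was above KEAP1 in 6 of 6, and KEAP1 was above SRXN1 in 5 of 6, so the order of KEAP1 and SRXN1 was not stable.

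NFE2L2 lies on chromosome 2 (177227595 to 177392697, minus strand; coordinates here and for the other genes are GRCh38, GENCODE 29). It had 37.6, 35.6 and 38.1 FPKM in RPPH1 replicates 1, 2 and 3, against 36.2, 35.2 and 34.7 FPKM in control replicates 1, 2 and 3. RPPH1 replicates 1 and 3 were above all controls, and RPPH1 replicate 2 lay among them. The means were 37.1 ± 1.35 FPKM in RPPH1 and 35.4 ± 0.772 FPKM in control libraries (SD, n = 3 libraries, likewise for every ± value). The log2 fold change was 0.065 (SE 0.042, limma adjusted p 0.722). Its exons overlap those of AGPS on the opposite strand, and the kit was stranded, but the sources used here do not say whether strand was used in counting.

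KEAP1, on chromosome 19 (10486120 to 10503741, minus strand), had the second largest difference of the 9 genes and did not pass. Its levels were 46.4, 45.4 and 45.8 FPKM in RPPH1 libraries and 53.0, 44.2 and 49.4 FPKM in control libraries. The 3 RPPH1 libraries sat close together, between the lowest control and the middle one. Their coefficient of variation was 1.03%, below the 2.00% that counting error alone gives, while that of the controls was 9.07%, beside 1.91% from counting. A coefficient from 3 libraries is itself imprecise, and a difference in spread between the groups was not tested for any of the 9 genes. The log2 fold change was -0.086 (SE 0.060, limma adjusted p 0.743). It depended on which control was present, at -0.027 without control replicate 1 and -0.16 without control replicate 2 (adjusted p 0.923 and 0.364).

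The transcripts of the factor and its repressor were compared through the ratio of NFE2L2 to KEAP1 FPKM in each library. This ratio does not measure the balance of the proteins. Since the ratio was chosen after the values were seen, its p-value is descriptive only. The ratio was 0.810, 0.782 and 0.833 in RPPH1 libraries and 0.684, 0.797 and 0.702 in control libraries. The RPPH1 ratios were the higher ones except that control replicate 2 exceeded RPPH1 replicate 2. The means were 0.808 ± 0.0253 and 0.728 ± 0.0606 in RPPH1 and control libraries, with a two-sided exact permutation p of 0.2, where 3 against 3 libraries cannot go below 0.1.

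**Figure D2:**
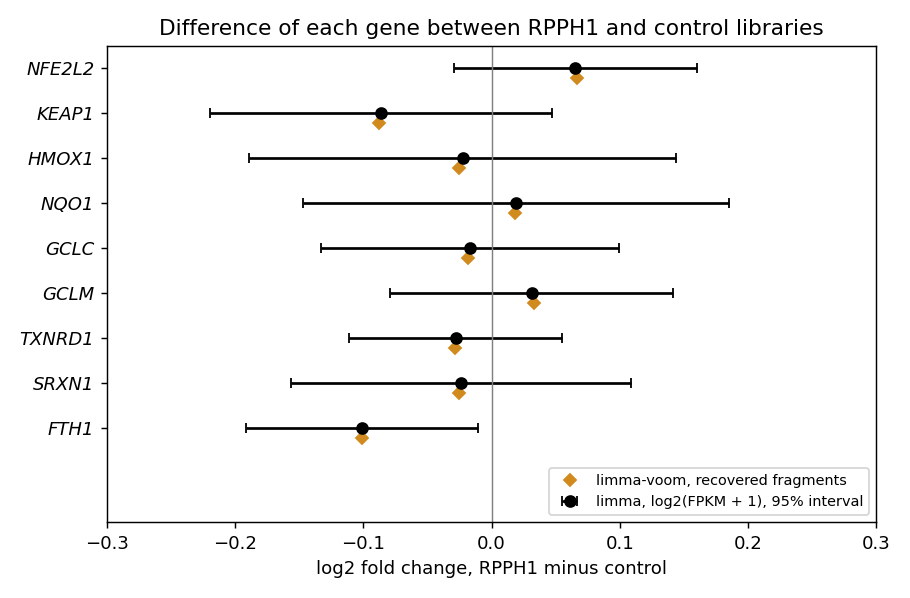
Log2 fold change of each gene, RPPH1 minus control (horizontal axis), by limma on log2(FPKM + 1) with its 95% interval (black) and by limma-voom on recovered fragments (orange, no interval drawn). The interval of FTH1 lies below 0 before adjustment for multiple tests, and the intervals of the other 8 genes include 0.

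Glutathione synthesis is limited by glutamate-cysteine ligase, made of the catalytic subunit GCLC and the modifier subunit GCLM. GCLC, on chromosome 6 (53497341 to 53616970, minus strand), had 13.8, 13.8 and 14.7 FPKM in RPPH1 libraries, against 14.4, 13.5 and 14.9 FPKM in control libraries. GCLM, on chromosome 1 (93885205 to 93909456, minus strand), had 10.8, 11.3 and 11.6 FPKM in RPPH1 libraries, against 11.4, 10.8 and 10.8 FPKM in control libraries. Both genes overlapped between groups and neither passed, with log2 fold changes of -0.017 (SE 0.052, limma adjusted p 0.955) for GCLC and 0.031 (SE 0.049, limma adjusted p 0.907) for GCLM. The sign for GCLC turned to 0.012 without control replicate 3, and its value was -0.0099 without control replicate 1. For GCLM the value was 0.057 without control replicate 1 and 0.0091 without RPPH1 replicate 3. The catalytic transcript stood above the modifier transcript in 6 of 6 libraries, at a GCLC to GCLM ratio of 1.25 ± 0.0248 in RPPH1 and 1.30 ± 0.0731 in control libraries (two-sided exact permutation p 0.6).

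The thioredoxin system was represented by TXNRD1, the cytosolic selenoprotein that reduces thioredoxin, and SRXN1, sulfiredoxin, which restores overoxidized peroxiredoxins. TXNRD1, on chromosome 12 (104215779 to 104350305, plus strand), had 127, 129 and 129 FPKM in RPPH1 libraries and 135, 132 and 125 FPKM in control libraries. Control replicates 1 and 2 were above the RPPH1 libraries and control replicate 3 below them. Its log2 fold change of -0.028 (SE 0.037, limma adjusted p 0.885) had the narrowest interval of the 9 genes, 0.926- to 1.04-fold, and lay between -0.058 without control replicate 3 and -0.0072 without control replicate 1.

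SRXN1, on chromosome 20 (646615 to 653370, minus strand), had 43.9, 45.5 and 44.3 FPKM in RPPH1 libraries and 49.3, 41.2 and 45.9 FPKM in control libraries. As for KEAP1, the RPPH1 libraries were bunched inside the control range, with a coefficient of variation of 1.89% in RPPH1 and 8.87% in control libraries, where counting gives 2.22% and 2.17%. The log2 fold change was -0.024 (SE 0.059, limma adjusted p 0.942), and its sign turned to 0.035 without control replicate 1.

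NQO1, a quinone reductase and a standard readout of NRF2 activity, lies on chromosome 16 (69706996 to 69726951, minus strand). It had 52.9, 59.6 and 57.8 FPKM in RPPH1 libraries, against 62.7, 50.4 and 55.4 FPKM in control libraries. The highest and the lowest library were both controls, and their ratio of 1.24 was the widest of the 9 genes. The log2 fold change of 0.019 (SE 0.074, limma adjusted p 0.967) became 0.0998 without control replicate 1, and the sign turned without control replicate 2 (-0.054) or RPPH1 replicate 2 (-0.016).

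HMOX1, which breaks heme down to biliverdin, iron and carbon monoxide, lies on chromosome 22 (35380361 to 35394214, plus strand). It had 7.71, 8.35 and 9.10 FPKM in RPPH1 libraries, against 7.76, 9.30 and 8.56 FPKM in control libraries. Each group spanned nearly the same range. With 219 to 263 fragments per library, counting alone gives a coefficient of variation of 6.54% in RPPH1 and 6.39% in control libraries, beside the measured 8.30% and 8.98%. The log2 fold change was -0.023 (SE 0.074, limma adjusted p 0.958), turning to 0.030 without RPPH1 replicate 1 and to 0.034 without control replicate 2, while it was -0.082 without control replicate 1.

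FTH1, the ferritin heavy chain with the ferroxidase activity of the iron store, lies on chromosome 11 (61959718 to 61967660, minus strand) and had the largest difference of the 9 genes. Its levels were 748, 813 and 791 FPKM in RPPH1 libraries and 870.0, 811 and 840.2 FPKM in control libraries. RPPH1 replicates 1 and 3 were below all controls, while RPPH1 replicate 2 was just above control replicate 2. The means were 784 ± 33.2 FPKM and 840.5 ± 29.3 FPKM in RPPH1 and control libraries. The log2 fold change of -0.10 (SE 0.040) had an unadjusted limma p of 0.0318 and an adjusted p of 0.573, and limma-voom gave an adjusted p of 0.436. The unadjusted limma p was above 0.05 with no filter (0.0791) and with the replicate block (0.0592). It was under 0.05 with a pseudocount of 0.1 (0.0316), a filter of 5 FPKM (0.0303) and median-of-ratios scaling (0.0236). With single libraries left out it ranged from 0.0158 to 0.155. Without control replicate 1 the log2 fold change was -0.076 (limma adjusted p 0.650), and without RPPH1 replicate 1 it was -0.068 (limma adjusted p 0.925). It was larger, at -0.128, without RPPH1 replicate 2 and, at -0.126, without control replicate 2 (limma adjusted p 0.523 and 0.412). The level is uncertain because GENCODE 29 lists 25 genes named as FTH1 pseudogenes, whose reads may be shared with FTH1, and because exons of BEST1 overlap it on the opposite strand.

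**Figure D3:**
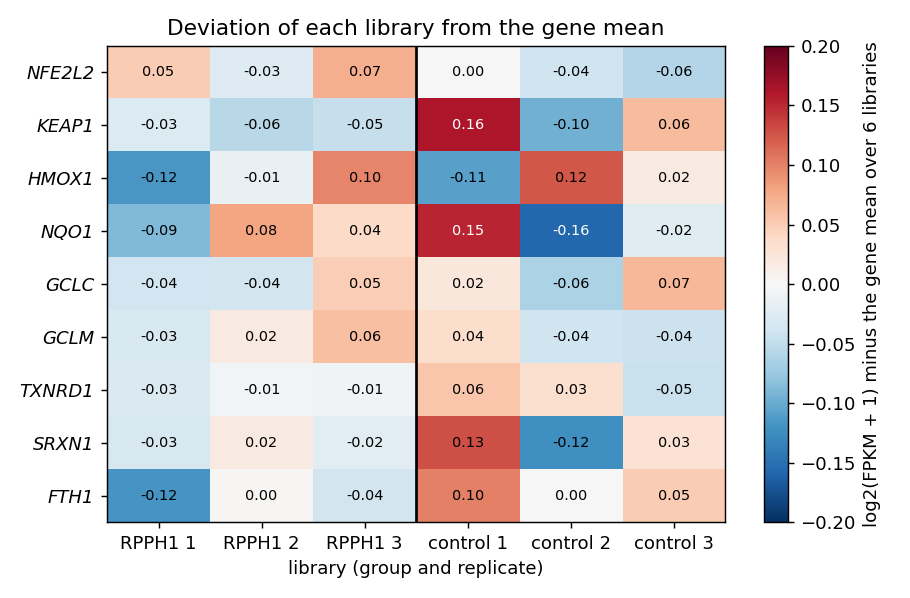
Deviation of each library (columns, RPPH1 left and control right of the black line) from the mean of each gene (rows) over the 6 libraries, in log2(FPKM + 1). Control replicate 1 is the darkest red for KEAP1, NQO1 and SRXN1 and control replicate 2 the darkest blue, while HMOX1 runs the other way in those libraries.

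The libraries with the highest and lowest levels of the 9 genes were set beside the same shares over all tested genes. Control replicate 1 was the highest of the 6 libraries for 5 genes (KEAP1, NQO1, TXNRD1, SRXN1 and FTH1), where it was the highest for 24.2% of all tested genes. Control replicate 2 was the lowest for 4 genes (KEAP1, NQO1, GCLC and SRXN1), where it was the lowest for 18.1% of all genes. HMOX1 ran the other way, with control replicate 2 the highest at 9.30 FPKM and control replicate 1, at 7.76 FPKM, next to the lowest library. The mean deviation of the 9 genes was -0.048, -0.0024 and 0.023 in RPPH1 replicates 1, 2 and 3, and 0.061, -0.040 and 0.0062 in control replicates 1, 2 and 3, in log2(FPKM + 1). RPPH1 replicates 2 and 3 lay within the control span, and RPPH1 replicate 1 lay below control replicate 2. The controls had the larger coefficient of variation for 6 of the 9 genes, as for 58.3% of all genes, so this was not particular to the 9. For NFE2L2, GCLM and FTH1 the RPPH1 libraries had the larger one.

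**Figure D4:**
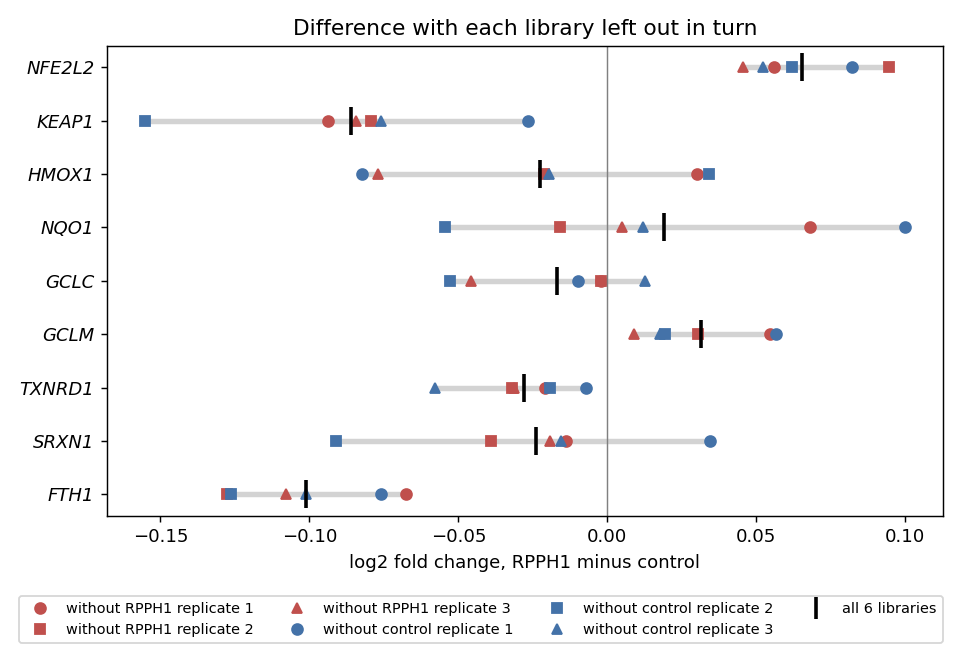
Log2 fold change of each gene, RPPH1 minus control (horizontal axis), with all 6 libraries (black tick) and with each library left out (red for an RPPH1 library, blue for a control, shape for the replicate). HMOX1, NQO1, GCLC and SRXN1 cross 0, and KEAP1 moves between -0.16 and -0.027.

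The wider pathway was read from 5 lists with 85 distinct genes, of which 81 were tested. By limma 0 rose and 0 fell, and by limma-voom likewise 0 and 0. At an unadjusted p under 0.05 limma had 6 of the 81 (7.41%, against 7.97% of all genes). At that threshold limma-voom had 8 (9.88%, against 8.67% of all genes). The groups did not overlap in 8 of the 81, or 9.88%, against 13.9% of all genes. Means were higher in RPPH1 libraries for 36 and lower for 45, with a median log2 fold change of -0.0087. Over all genes, 52.3% had higher means and the median was 0.0046.

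Of the 14 partners and regulators of NRF2, which include the small MAF proteins, the competing repressor BACH1 and the CUL3 ligase, 4 had higher and 10 lower means (median -0.012), and 0 passed. SQSTM1, the autophagy receptor p62 that binds KEAP1 and is itself an NRF2 target, had 283, 304 and 294 FPKM in RPPH1 libraries, against 351, 294 and 316 FPKM in control libraries. As with KEAP1, control replicate 1 was the highest library, and the log2 fold change of -0.12 had a limma adjusted p of 0.664. Without control replicate 1 it was -0.053 (limma adjusted p 0.787). DPP3, a peptidase that binds KEAP1, averaged 24.3 ± 1.29 FPKM in RPPH1 and 26.3 ± 1.81 FPKM in control libraries. TRIM16, whose sequence is close to that of TRIM16L so that its level is uncertain, averaged 10.7 ± 0.594 and 11.6 ± 0.529 FPKM in RPPH1 and control libraries. NFE2L1, the related factor NRF1, averaged 105 ± 3.09 and 107 ± 2.41 FPKM in RPPH1 and control libraries.

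Among 30 other NRF2 targets, 27 were tested, 12 with higher and 15 with lower means (median -0.020), and 0 passed. AKR1B1, an aldose reductase, had 128, 147 and 124 FPKM in RPPH1 libraries, against 153, 138 and 167 FPKM in control libraries. Its groups overlapped through RPPH1 replicate 2, and its log2 fold change of -0.19 had a limma adjusted p of 0.573, or -0.13 without control replicate 3 (limma adjusted p 0.797). FTL, the ferritin light chain, had 2109, 2216 and 2253 FPKM in RPPH1 libraries, against 2657, 2204 and 2353 FPKM in control libraries. Control replicate 1 was again the highest library, and the log2 fold change of -0.13 had a limma adjusted p of 0.642. Without that library it was -0.055 (limma adjusted p 0.752). The ratio of FTH1 to FTL was 0.357 ± 0.00833 in RPPH1 and 0.351 ± 0.0211 in control libraries (two-sided exact permutation p 0.9). Thioredoxin, TXN, averaged 539 ± 14.7 FPKM in RPPH1 and 525 ± 19.9 FPKM in control libraries, and the oxidative stress growth inhibitor OSGIN1 averaged 4.01 ± 0.394 and 4.80 ± 0.943 FPKM in RPPH1 and control libraries. For OSGIN1 the log2 fold change was -0.20 with all libraries and -0.071 without control replicate 1 (limma adjusted p 0.677 and 0.857).

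Glutathione synthesis and use gave 9 of 17 genes with higher and 8 with lower means (median 0.0086), and 0 passed. GSTO1, an omega-class glutathione transferase, had 128, 130.3 and 131 FPKM in RPPH1 libraries, against 143, 142 and 135 FPKM in control libraries. GPX8, a peroxidase of the endoplasmic reticulum, had 24.7, 25.8 and 24.7 FPKM in RPPH1 libraries, against 22.8, 24.0 and 21.7 FPKM in control libraries. These were the 2 genes of the list whose groups did not overlap, in opposite directions, with limma adjusted p of 0.512 for GSTO1 and 0.560 for GPX8. GSTK1 averaged 34.1 ± 1.65 FPKM in RPPH1 and 31.7 ± 1.70 FPKM in control libraries. The main cytosolic glutathione peroxidase, GPX1, averaged 172 ± 7.06 and 174 ± 3.18 FPKM in RPPH1 and control libraries.

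Of 16 antioxidant enzymes and related genes that are not taken as core NRF2 targets, 9 had higher and 7 lower means (median 0.018), and 0 passed. SOD2, the mitochondrial superoxide dismutase and an NF-kB target, had 17.9, 19.2 and 18.1 FPKM in RPPH1 libraries, against 19.2, 22.2 and 21.6 FPKM in control libraries. All RPPH1 libraries were below all controls, the nearest pair by a small margin, and the log2 fold change of -0.18 (SE 0.059) had an adjusted p of 0.502 by limma and 0.178 by limma-voom, the smallest limma-voom value in the 5 lists. TXNIP, which binds and inhibits thioredoxin, had 113, 122 and 109 FPKM in RPPH1 libraries, against 131, 131 and 119 FPKM in control libraries (limma adjusted p 0.544). PRDX4, the peroxiredoxin of the endoplasmic reticulum, had 74.5, 77.1 and 75.8 FPKM in RPPH1 libraries, against 71.4, 72.7 and 70.4 FPKM in control libraries, with no overlap and a limma adjusted p of 0.614. The peroxiredoxins PRDX2 and PRDX3 averaged 208 ± 2.45 and 135 ± 3.35 FPKM in RPPH1 libraries, and 204 ± 2.85 and 129.98 ± 2.95 FPKM in control libraries.

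Iron and heme handling gave 14 tested genes of 15, with 6 higher and 8 lower means (median -0.017), and 0 passed. TFRC, the transferrin receptor, had 91.0, 87.4 and 94.4 FPKM in RPPH1 libraries, against 115, 93.0 and 97.6 FPKM in control libraries. Control replicate 1 was the highest library for TFRC as for FTH1 and FTL, and the log2 fold change of -0.15 had a limma adjusted p of 0.626. For TFRC it was -0.067 without control replicate 1 (limma adjusted p 0.725). BLVRB, a biliverdin reductase, averaged 32.8 ± 1.94 FPKM in RPPH1 and 35.0 ± 1.59 FPKM in control libraries. The iron chaperone PCBP1 averaged 201 ± 1.45 and 195 ± 1.83 FPKM in RPPH1 and control libraries, with groups that did not overlap and a limma adjusted p of 0.765.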

How the data were processed

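Expression was measured in 6 libraries, 3 RPPH1 and 3 control. Per the labels' protocols, total RNA was made into stranded mRNA libraries with a TruSeq kit. The submitters' processing notes name Trimmomatic, HISAT2, Cufflinks and GRCh38; versions and annotation are not given in the sources used here. By their size and steps the deposited values are FPKM, since the header names no unit, with 1 column per library. FPKM hides depth, so whole fragments, gene lengths and library totals were recovered from its steps. All 10909 tested genes came out whole in every library within 0.01 fragments plus a relative 3e-08, and 99.4% of each total fell in listed genes. The fits and the recovery were tested on simulated data. The data simulated for the fits had the same dispersion for all genes and no outlying library. They therefore do not show how the fits behave with a library like control replicate 1.

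The test was limma 3.58.1 (R 4.3.3), fitted to log2(FPKM + 1) of genes that reached 1 FPKM in 3 or more libraries, using a mean-variance trend, group as the only term and Benjamini-Hochberg adjustment over all genes tested, with a threshold of 0.05. Adding 1 to the FPKM makes fold changes of low genes smaller than they are. Alternatives were a pseudocount of 0.1, no filter, a filter of 5 FPKM, the replicate number as a block, median-of-ratios scaling, limma-voom on recovered fragments and leaving out each library. Counting error was taken as the inverse square root of the mean fragment number. Chi-square per gene between replicates was 2.21 to 8.36, above counting noise, so each library counted as 1 sample. The genes and lists were chosen with earlier results of these data known. Besides the 9 genes, each list's genes that passed in either tool were named, and otherwise the 3 with the smallest p and the 2 with the highest level. For the gene with the widest range, the 5 nearest profiles were named. MSRB3, NCOA4 and UGDH were named after their values were seen, as were CD14, AKR1B10, AKR1C2, SLC40A1 and GPX2. Promoter windows came from RefSeq (GRCh38.p14) and gene coordinates from GENCODE 29. Of the mesenchymal markers chosen, 1 is not reported here.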

Additional observations from a re-analysis of the deposited data

How the results depend on the processing

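None of the 9 genes, and none of the genes in the 5 pathway lists, passed under any alternative run: pseudocount 0.1, no filter, a filter of 5 FPKM, the replicate block, median-of-ratios scaling, limma-voom or leaving out 1 library. FTH1, GCLM, KEAP1, NFE2L2 and TXNRD1 kept their sign under all 12 alternatives. The sign turned only with single libraries left out, over which the log2 fold change ranged from -0.082 to 0.034 for HMOX1, -0.054 to 0.0998 for NQO1, -0.053 to 0.012 for GCLC and -0.091 to 0.035 for SRXN1; the cause was not tested. Over all tested genes, 1 passed, against 0 with no filter, 8 with a filter of 5 FPKM (2 higher, 6 lower), 0 with the replicate block, 17 by limma-voom (7 higher, 10 lower) and 0 to 7 with single libraries left out, 7 without control replicate 1. Deviations of same-numbered libraries of the 2 groups correlated at 0.057, 0.018 and -0.10 across genes for replicates 1, 2 and 3. With 3 libraries per group, these values cannot decide whether such libraries shared a preparation. Depth limits HMOX1 most, since its counting error alone exceeded 6% per library.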

Other observations

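NQO1 had the widest range of the 9 genes, and the genes with the most similar profiles over the 6 libraries were SIMC1, ZNF32, PLPBP, NSMAF and MTG1, with root mean square differences of 0.019 to 0.025 in centred log2(FPKM + 1). ZNF32, for example, had 10.4, 12.2 and 11.5 FPKM in RPPH1 libraries and 12.6, 10.2 and 10.9 FPKM in control libraries, with control replicate 1 the highest and control replicate 2 the lowest library, as for NQO1. With 6 libraries and 10909 genes some profiles will be close to any given one, so this is a description of the libraries only.

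Some NRF2 and iron genes lay under the filter on low values. AKR1B10, an aldo-keto reductase induced by NRF2 in many epithelial cancers, was at 0.124, 0.127 and 0.151 FPKM in RPPH1 libraries and 0.080, 0.062 and 0.083 FPKM in control libraries. The groups did not overlap at this low level, and without the filter its limma adjusted p was 0.561. SLC40A1, the iron exporter ferroportin, was at 0.941, 0.881 and 0.820 FPKM in RPPH1 libraries and 0.649, 0.488 and 0.756 FPKM in control libraries, likewise without overlap, with an adjusted p of 0.618 without the filter. AKR1C2, whose sequence is close to those of AKR1C1 and AKR1C3 so that its level is uncertain, lay between 0.086 and 0.241 FPKM in the 6 libraries, and GPX2 was listed at 0 in 5 of them. UGDH, MSRB3 and NCOA4 were the remaining tested genes whose groups did not overlap, with limma adjusted p of 0.916, 0.713 and 0.748.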
